A study of Homo sapiens with 6 samples.

Results

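The 10 S100A genes described here (S100A2, S100A4, S100A6, S100A7, S100A8, S100A9, S100A10, S100A11, S100A14 and S100A16) were taken by symbol from the 58676 genes of an RNA sequencing table of DCIS.COM cells with and without BCL9 knockdown. All 10 lie on chromosome 1 (hg38), between 151982915, the lowest position of the S100A10 gene, and 153616986, the highest position of the S100A14 gene. DCIS.COM is an established human breast cell line of the basal type, used as a model of ductal carcinoma in situ (DCIS). BCL9 is a co-activator best known from the Wnt/β-catenin pathway, and the study asked which transcripts depend on it in these cells. Both groups were transduced with a PLKO.1 lentiviral vector. The vector of the 3 NS control samples carried a non-silencing sequence, and that of the 3 BCL9 KD samples a single shRNA against BCL9, so the shRNA and the knockdown cannot be told apart. Each sample was a separate T75 flask of its group's transduced cells, and p-values measure the spread between flasks.

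S100 proteins are small proteins that bind calcium through a pair of EF-hand motifs and mostly work as dimers. They have no known enzyme activity of their own: calcium binding exposes a surface through which they hold partners such as annexins and myosin, and some members are released from cells and act on receptors such as RAGE and TLR4. Most of the family's genes lie in a cluster on the long arm of chromosome 1, next to the genes of the epidermal differentiation complex, and several members are used as markers of basal and squamous epithelium.

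The DNA around the start sites is shown for the 4 S100A genes that hold a TATA box motif, for S100A2, which holds an AP-1 motif, and for S100A6 as a highly expressed gene without a match. RefSeq promoter windows (GRCh38.p14, 250 bases before to 50 bases after a start) were matched by symbol for 10 of 10 genes and gave 14 windows. Below are the 150 bases from 100 before the start of 6 genes, 5′ to 3′ on the gene's own strand, with matches to the searched motifs in capitals.

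S100A9, chr1:153357754-153357903, plus strand: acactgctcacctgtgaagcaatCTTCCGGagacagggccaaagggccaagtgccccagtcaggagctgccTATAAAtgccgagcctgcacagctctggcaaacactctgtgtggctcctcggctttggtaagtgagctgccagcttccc
S100A8, chr1:153391024-153391173, minus strand: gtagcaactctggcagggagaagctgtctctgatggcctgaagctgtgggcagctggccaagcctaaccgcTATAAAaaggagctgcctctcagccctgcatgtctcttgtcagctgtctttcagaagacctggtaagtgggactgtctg
S100A7, chr1:153460602-153460751, minus strand: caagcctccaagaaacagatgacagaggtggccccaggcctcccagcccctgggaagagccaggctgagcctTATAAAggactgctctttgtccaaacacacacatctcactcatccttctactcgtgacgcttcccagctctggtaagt
S100A4, chr1:153545757-153545906, minus strand: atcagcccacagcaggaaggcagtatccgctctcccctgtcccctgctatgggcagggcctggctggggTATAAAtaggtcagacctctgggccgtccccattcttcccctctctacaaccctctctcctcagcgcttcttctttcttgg
S100A2, chr1:153565795-153565944, minus strand: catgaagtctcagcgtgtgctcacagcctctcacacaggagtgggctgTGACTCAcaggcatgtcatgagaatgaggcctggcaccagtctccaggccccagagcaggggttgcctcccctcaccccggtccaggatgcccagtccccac
S100A6, chr1:153535942-153536091, minus strand: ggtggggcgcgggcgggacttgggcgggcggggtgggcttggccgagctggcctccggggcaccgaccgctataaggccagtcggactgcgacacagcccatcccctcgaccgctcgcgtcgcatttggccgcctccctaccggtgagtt

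Capitals mark the TATA box letters TATAAA in S100A9, S100A8, S100A7 and S100A4, the AP-1 motif TGANTCA in S100A2, and the ETS motif CCGGAAG, read on the opposite strand, in S100A9. The S100A6 stretch holds no match. Motifs were searched on both strands in whole windows and do not overlap each other here. The TATA box letters were found at 4 places, 1 in each of 4 of the 10 genes (3 of the 7 that rose, described below, and S100A7), and lay in 5 of the 14 windows, since overlapping windows of S100A8 hold the same letters. Of all 34796 RefSeq windows, which can overlap in the same way, 11.6% held them. In S100A9 they began 29 bases before the start, in S100A7 28 bases and in S100A4 31 bases before it. S100A8 has 3 RefSeq starts. The letters began 29 bases before the start shown (153391073), which was chosen for this match, and 126 bases before another (153390976), and they were not in the window of the start at the table's 5′ end of the gene (153391188). Each of the other motifs was found in the windows of 0 or 1 of the 10 genes. AP-1 was found in S100A2 (7.73% of all windows), ETS in S100A9 (10.2%), the C/EBP motif TTGCNNAA in S100A11 (10.5%) and the NF-kappaB consensus in S100A14 (11.3%). The STAT motif TTCNNNGAA (7.67% of all windows) and the TCF/LEF motif CTTTGAT (2.62%) were in no window of the 10 genes. A match describes letters in a window and not a bound site.

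The samples held 15222452 to 22712638 reads on genes in NS control and 15665714 to 26949026 in BCL9 KD, and log2 values of replicates correlated across genes at a Pearson r of 0.964 to 0.987. Values are FPKM, the reads on a gene per kilobase of its length and scaled to the depth of the sample. BCL9 itself was at 6.25, 6.24 and 5.34 FPKM in NS control and 2.86, 2.78 and 2.59 FPKM in BCL9 KD (log2 fold change −0.99, SE 0.0933, adjusted p = 0.00773, limma). All 8 genes of a basal epithelial list were above the filter, and their summed level was 1593 to 1843 FPKM in NS control and 1642 to 1672 FPKM in BCL9 KD. The cells also held luminal transcripts. Of 8 luminal genes 6 were tested, and their list summed to 468 to 582 FPKM in NS control and 460 to 491 FPKM in BCL9 KD, mostly from KRT8 (242 to 333 FPKM over the 6 samples) and KRT18 (142 to 205 FPKM). KRT8 and KRT18 were lower in every BCL9 KD sample than in any control without passing (adjusted p = 0.144 and 0.207, limma), and AREG passed as higher. The hormone receptor genes were near absent, with PGR listed at 0 in every sample and ESR1 below 0.1 FPKM. T and B cell markers summed to 0.0131 FPKM at most and fibroblast markers to 0.749 FPKM at most.

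BCL9 KD cells held more S100A transcript than NS control cells. Of the 10 genes, 7 rose (S100A2, S100A4, S100A6, S100A8, S100A9, S100A10 and S100A11) and none fell, at an adjusted p-value under 0.05 by limma with Benjamini-Hochberg adjustment over the 13745 genes with a mean of at least 0.5 FPKM. Over all genes tested, 807 or 5.87% passed, and 2.96% passed and were higher in BCL9 KD. The fold changes of the 10 genes were all above 0 with a median of 0.88 on the log2 scale of FPKM + 0.5, beside a median of 0.04 over all genes tested. S100A7, S100A14 and S100A16 did not pass. All 3 BCL9 KD samples were above all 3 NS control samples for 8 of the 10 genes. The same held for 17.8% of all genes tested, and 34.2% did not overlap in either direction. The calls depended on which sample was left out: with limma, 5 of the 10 genes passed without NS control replicate 1 and 7 without NS control replicate 3 or BCL9 KD replicate 1, but 0 without NS control replicate 2, BCL9 KD replicate 2 or BCL9 KD replicate 3, with 8 of 10 at an unadjusted p under 0.05 in each of these. Over all genes 690, 1729 and 748 passed in the first group of settings and 12, 13 and 5 in the second. In the second group, 2609 of 13750, 2410 of 13783 and 2330 of 13764 genes were at an unadjusted p under 0.05 by limma.

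**Figure D1:**
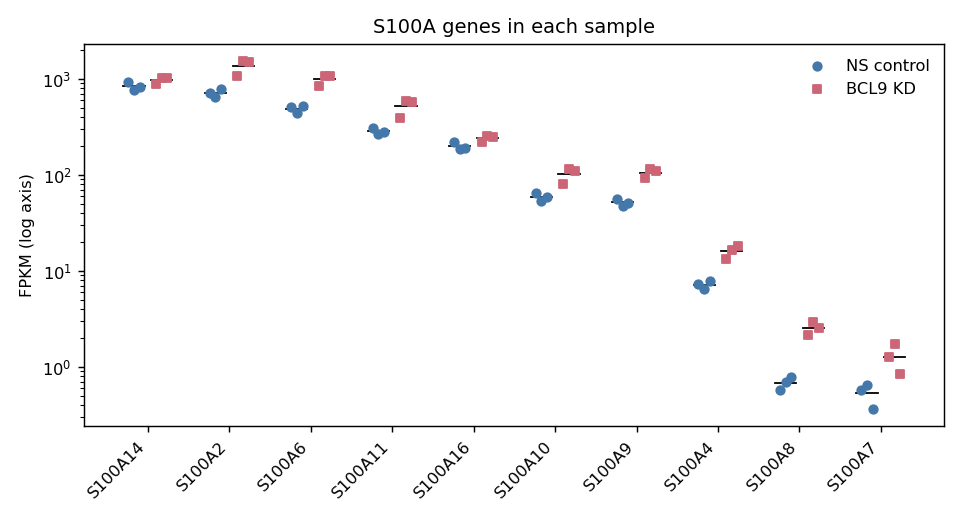
FPKM (log axis) of the 10 S100A genes in each sample, ordered by their NS control mean, with NS control as circles, BCL9 KD as squares and group means as lines. The 2 groups are apart for 8 genes and overlap for S100A14 and S100A16.

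S100A8 and S100A9, the subunits of calprotectin, a metal-binding heterodimer that is abundant in neutrophils and is induced in stressed epithelium, both rose. S100A8 (ENSG00000143546, chr1:153390032-153391188) was at 0.569, 0.688 and 0.784 FPKM in NS control and 2.14, 2.95 and 2.54 FPKM in BCL9 KD. The lowest knockdown sample held more than the highest control sample. The log2 fold change was 1.36 (SE 0.146, adjusted p = 0.0102, limma), the largest of the 10, and the ratio of the mean FPKM was 3.74. It rests on few reads, 13, 14 and 12 in NS control and 38, 80 and 40 in BCL9 KD.

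S100A9 (ENSG00000163220, chr1:153357854-153361027), the only one of the 10 on the plus strand, was at 56.1, 47.5 and 51.2 FPKM in NS control and 92.5, 113 and 111 FPKM in BCL9 KD. The groups were apart by more than the spread within either of them. Its log2 fold change was 1.02 (SE 0.104, adjusted p = 0.00942, limma), a doubling, and it had the lowest adjusted p of the 10. S100A9 was the only one of the 10 that also passed at an adjusted p under 0.01.

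Within a sample, S100A9 FPKM exceeded S100A8 FPKM by a factor of 98.6, 69.0 and 65.4 in NS control and 43.3, 38.5 and 43.6 in BCL9 KD. Every knockdown sample had a lower ratio than every control sample, and the log2 ratio differed by −0.87 (exact permutation over samples, two-sided p = 0.1, and 3 against 3 cannot go lower). Of 8 markers of myeloid cells, in which these genes are best known, CD14 alone was above the filter. It was at 0.560, 0.288 and 0.418 FPKM in NS control and 1.38, 0.964 and 0.779 FPKM in BCL9 KD (adjusted p = 0.0811, limma), apart between the groups. The summed level of the 8 was 0.595 to 0.782 FPKM in NS control and 0.969 to 1.71 FPKM in BCL9 KD, but without CD14 the other 7 summed to 0.222 to 0.308 FPKM and 0.174 to 0.330 FPKM, which overlap. CSF3R, a neutrophil receptor, was at 0.0468 to 0.0586 FPKM in NS control and 0.00440 to 0.0152 FPKM in BCL9 KD, MPO was listed at 0 in all 6 samples and PTPRC had 1 read in 1 sample. S100A12, the other calgranulin of neutrophils, was also listed at 0 in all 6. The part of CD14-bearing cells in the S100A8 and S100A9 values was not tested. In bulk samples, more cells of a kind and more RNA per cell cannot be told apart.

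S100A7, psoriasin, an antimicrobial protein of inflamed skin, was barely present. It was at 0.575, 0.646 and 0.368 FPKM in NS control and 1.27, 1.73 and 0.834 FPKM in BCL9 KD, from 7, 7 and 3 reads and 12, 25 and 7 reads. The groups did not overlap, but the log2 fold change of 0.77 (SE 0.226) did not pass (adjusted p = 0.0884, limma). At such levels the value depends on the pseudocount and unit: S100A7 was at 0.56 with a pseudocount of 1, 1.10 with 0.1 and 1.22 with voom on reads, and S100A8 ranged from 1.07 with a pseudocount of 1 to 1.92 with voom. The near-identical copy of S100A7, S100A7A, had 0 to 2 reads in each sample, and reads of the copies may have been shared.

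Of the S100 proteins tied to cell motility, S100A4, which binds the heavy chain of nonmuscle myosin IIA, rose. It was at 7.26, 6.41 and 7.75 FPKM in NS control and 13.4, 16.5 and 18.1 FPKM in BCL9 KD. All knockdown samples lay well above the controls, with a log2 fold change of 1.10 (SE 0.126, adjusted p = 0.0117, limma). The S100A4 gene spans 2044 bases of S100A3 on the same strand, so reads there could be assigned to either or to neither. S100A3 was at 4.75, 4.92 and 5.57 FPKM in NS control and 6.16, 6.26 and 4.75 FPKM in BCL9 KD, and these groups overlapped.

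S100A6, calcyclin, which is known from proliferating cells, rose from 511, 440 and 514 FPKM in NS control to 847, 1079 and 1077 FPKM in BCL9 KD. Its 3 knockdown samples were above every control, and the log2 fold change was 1.03 (SE 0.123, adjusted p = 0.0124, limma). S100A6 overlaps 517 bases of an antisense gene with a mean of 0.373 FPKM. Whether strand was used in counting is not given in the sources used here.

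S100A2, a marker of basal epithelium, was at 707, 651 and 783 FPKM in NS control and 1062, 1517 and 1496 FPKM in BCL9 KD. BCL9 KD replicate 1 stood below the other two knockdown samples but above every control. The log2 fold change was 0.91 (SE 0.155, adjusted p = 0.0299, limma), and S100A2 had the highest FPKM of the 10 genes in all 3 knockdown samples.

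S100A10 and S100A11 are partners of annexins, proteins that bind membranes in the presence of calcium. S100A10, also called p11, is held in a complex by annexin A2 and does not itself need calcium. It was at 64.2, 53.9 and 58.8 FPKM in NS control and 79.9, 114 and 111 FPKM in BCL9 KD, a log2 fold change of 0.76 (SE 0.147, adjusted p = 0.0374, limma). S100A11, a ligand of annexin A1, was at 306, 266 and 278 FPKM in NS control and 391, 586 and 566 FPKM in BCL9 KD, a log2 fold change of 0.84 (SE 0.160, adjusted p = 0.0374, limma). In both, BCL9 KD replicate 1 lay nearest the controls without overlapping them. S100A11 overlaps an antisense gene with a mean of 0.0687 FPKM.

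S100A14 and S100A16, a neighbouring pair in the genome that is widely expressed in epithelia, did not pass. S100A14 was at 917, 771 and 828 FPKM in NS control and 891, 1011 and 1018 FPKM in BCL9 KD. BCL9 KD replicate 1 fell between the control values. The log2 fold change was 0.22 (SE 0.0991, 95% interval −0.02 to 0.45, adjusted p = 0.212, limma). S100A16 was at 219, 188 and 190 FPKM in NS control and 217, 256 and 247 FPKM in BCL9 KD, and again BCL9 KD replicate 1 lay among the controls. Its log2 fold change was 0.27 (SE 0.0973, 95% interval 0.04 to 0.50, adjusted p = 0.132, limma). The interval of S100A10 (0.42 to 1.11) overlaps both of these, and that of S100A11 (0.46 to 1.22) overlaps that of S100A16.

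**Figure D2:**
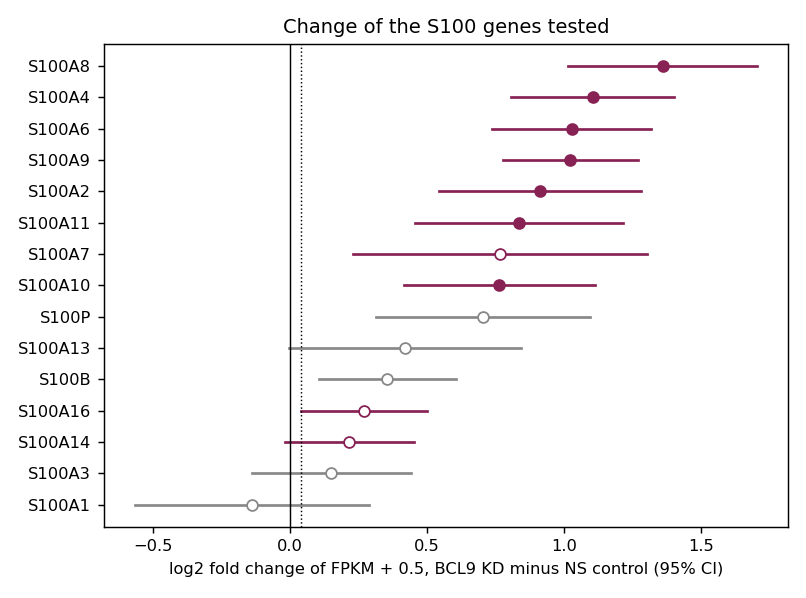
Log2 fold change of FPKM + 0.5, BCL9 KD minus NS control, with 95% confidence intervals, for the 10 S100A genes (purple) and the 5 other S100 genes tested (grey). Filled points passed at an adjusted p under 0.05, open points did not, and the dotted line is the median of all genes tested, 0.04.

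BCL9 KD replicate 1 was the lowest knockdown sample for 9 of the 10 genes, the exception being S100A7, and NS control replicate 2 was the lowest control for 8 of 10. How often this held over all genes tested was not counted, so it cannot be read as a trait of these 10. No label or file column names a batch.

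The summed level of the 10 genes was 2789, 2425 and 2712 FPKM in NS control and 3598, 4697 and 4647 FPKM in BCL9 KD. All knockdown samples were higher, by a ratio of means of 1.63 (exact permutation on log2 of the sum, two-sided p = 0.1, the floor of this design). The share of all FPKM in a sample that came from the 10 genes was 1.01% ± 0.0392 (SD, n = 3) in NS control and 1.56% ± 0.196 (SD, n = 3) in BCL9 KD. Counted as reads, without scaling to length, the share was 0.332% in NS control and 0.534% in BCL9 KD.

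The makeup of that sum shifted. S100A14 gave 31.7% of it in NS control and 22.7% in BCL9 KD, and S100A16 gave 7.53% and 5.60%. S100A6 gave 18.5% and 23.2%, and S100A2 27.0% and 31.3%. In each of these 4 genes the shares of the groups did not overlap (exact permutation, two-sided p = 0.1, the floor of this design). The same held for S100A4, S100A8 and S100A9, whose shares were higher in BCL9 KD, while those of S100A7, S100A10 and S100A11 overlapped. Shares of 1 sum constrain each other and are not separate results.

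**Figure D3:**
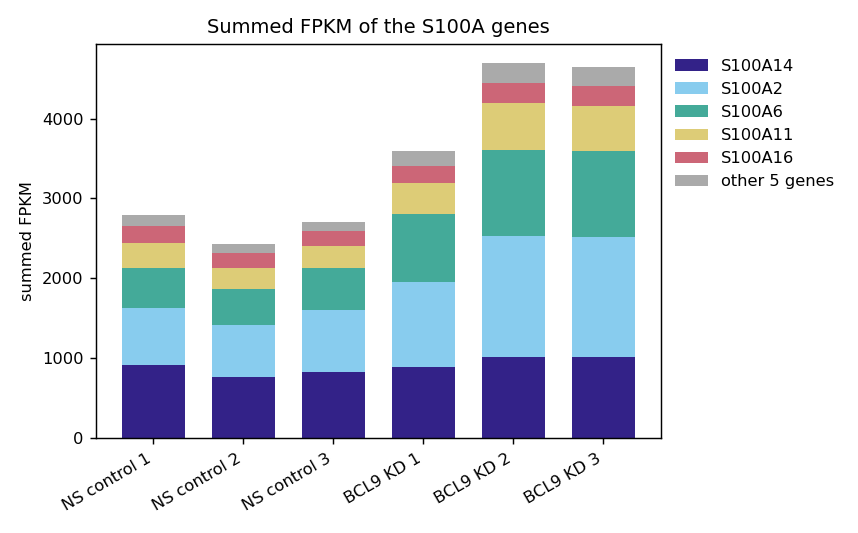
Summed FPKM of the 10 S100A genes in each sample (bars start at 0), stacked by gene. The bars rise from 2425 to 2789 in NS control to 3598 to 4697 in BCL9 KD, while the S100A14 block stays between 771 and 1018.

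Ratios between genes within a sample are built from the same FPKM and describe this shift without the depth of the sample. The ratio of S100A6 to S100A14 was 0.557, 0.571 and 0.621 in NS control and 0.950, 1.07 and 1.06 in BCL9 KD. The ratio of S100A14 to S100A16 was 4.22 in NS control and 4.06 in BCL9 KD with overlapping samples, and that of S100A6 to S100A9 was 9.47 and 9.46. As a description, the groups were apart in 14 of the 16 ratios of the 8 other genes to S100A14 or S100A16. They were also apart in 13 of the 28 ratios among those 8, such as S100A6 to S100A10 (8.29 and 9.93). S100A14 and S100A16 were set apart because their own groups overlapped, so the difference between these counts follows in part from that choice. The ratios reuse the same genes and samples, and ratios among all genes tested were not counted.

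The order of the levels changed with this. In NS control it ran from S100A14 (mean 839 FPKM) through S100A2 (714), S100A6 (488), S100A11 (284), S100A16 (199), S100A10 (59.0), S100A9 (51.6) and S100A4 (7.14) to S100A8 (0.680) and S100A7 (0.529). The neighbours S100A14 and S100A2, S100A10 and S100A9, and S100A8 and S100A7 overlapped between samples. In BCL9 KD S100A2 came first (mean 1358 FPKM), followed by S100A6 (1001) and S100A14 (974), and S100A9 (106) stood beside S100A10 (101.5). There S100A2 and S100A6, S100A6 and S100A14, and S100A9 and S100A10 overlapped.

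Of a list of 10 other genes of the S100 family, 5 were tested and none passed by limma. They were named after their values were seen. S100P, which is known from carcinoma cells, was at 9.58 to 11.03 FPKM in NS control and 13 to 20.4 FPKM in BCL9 KD (log2 fold change 0.71, adjusted p = 0.0533, limma). S100B was at 46.0, 44.5 and 46.9 FPKM and 50.2, 65.8 and 61.3 FPKM (log2 fold change 0.36, adjusted p = 0.0898, limma). Both lie off chromosome 1, and their groups did not overlap, as for 17.8% of all genes tested in that direction. The log2 fold changes of S100A13, S100A3 and S100A1, all in the cluster, were 0.42, 0.15 and −0.14. S100A12 and S100Z were listed at 0 in every sample, and S100A5, S100A7A and S100G were below the filter.

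Of 28 genes for binding partners and receptors of S100 proteins, 18 were tested and 1 passed, 5.56% of those tested beside 5.87% of all genes. With the 5 other family genes, 1 of 23 passed, and this count was 5 without BCL9 KD replicate 1, 4 without NS control replicate 3 and 0 without NS control replicate 2, BCL9 KD replicate 2 or BCL9 KD replicate 3, where MYH9 did not pass either. MYH9, the gene that passed, which encodes the myosin heavy chain bound by S100A4, was at 441, 413 and 357 FPKM in NS control and 292, 253 and 244 FPKM in BCL9 KD (log2 fold change −0.62, SE 0.109, adjusted p = 0.0322, limma). The annexins ANXA1, the partner of S100A11, and ANXA2, that of S100A10, did not pass. Their log2 fold changes were 0.81 (adjusted p = 0.0511, limma) and 0.35 (adjusted p = 0.0782, limma), and their groups did not overlap. Of the 18 genes tested, 5 were higher and 2 lower without overlap, beside 34.2% of all genes in either direction. The groups of ANXA5, ANXA6 and ANXA11 overlapped, with log2 fold changes of 0.03, −0.18 and 0.01. The ratio of S100A10 to ANXA2 FPKM was 0.226, 0.206 and 0.227 in NS control and 0.265, 0.313 and 0.306 in BCL9 KD, apart in every sample (exact permutation, two-sided p = 0.1, the floor of this design). The calprotectin receptors TLR4 and AGER, which encodes RAGE, had log2 fold changes of 0.57 (adjusted p = 0.115, limma) and 0.45 (adjusted p = 0.232, limma). TRPV5 and SCN10A, ion channels brought to the membrane by S100A10, were listed at 0 in all samples. The median log2 fold change of the 18 was 0.13.

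Between the outermost S100 genes of the cluster (chr1:151982915-153632039, hg38) the table lists 90 genes, 17 of them S100 genes. Of the 73 others, 7 were above the filter and tested. IVL, which encodes involucrin of the cornified envelope, fell from 1.66, 2.07 and 2.04 FPKM in NS control to 1.05, 0.948 and 0.919 FPKM in BCL9 KD (log2 fold change −0.71, adjusted p = 0.0308, limma). The other 6 had fold changes above 0 and did not pass. The small proline-rich genes SPRR2D, at 0.374 to 0.622 FPKM in NS control and 0.856 to 2.17 FPKM in BCL9 KD, and SPRR2A, at 0.627 to 1.49 and 2.07 to 3.30 FPKM, both had a log2 fold change of 0.99 and are named after their values were seen. Of the 10 nearest tested genes on either side of the span, 2 of 20 passed, both lower, and their median log2 fold change was 0.01. BCL9 lies on the same chromosome arm, 4.36 Mb before S100A10.

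**Figure D4:**
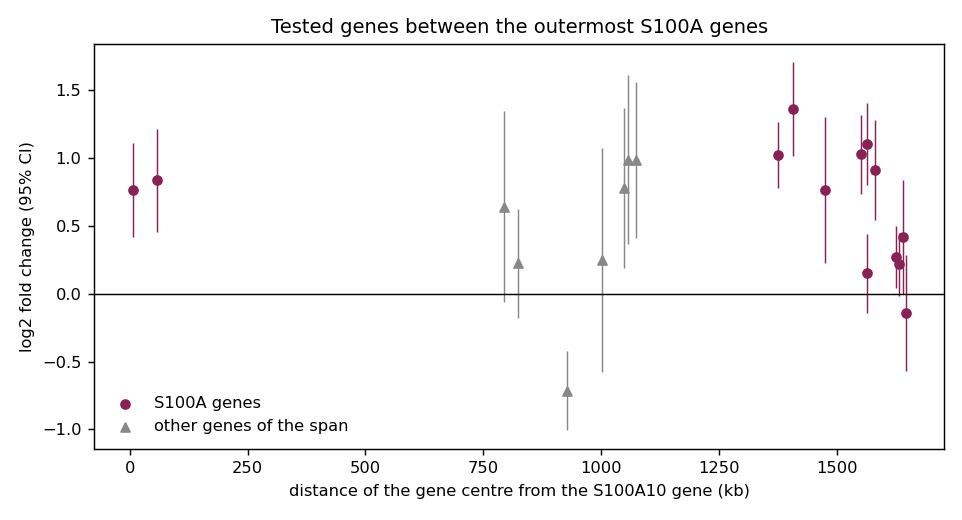
Log2 fold change with 95% confidence interval of each tested gene of the span, placed by the distance of its centre from the S100A10 gene in kb, with S100 genes as circles and other genes as triangles. S100A10 and S100A11 stand at one end and the others of the 10 at the opposite end, where S100A14 (0.22) and S100A16 (0.27) lie between S100A2, which rose, and S100A13 and S100A1, which did not pass.

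The 10 genes are short, 536 to 1701 bases in the table. The 1355 genes tested in that range had a median log2 fold change of 0.14, and 6.05% of them passed and were higher, against 2.96% of all. Of the 10 genes, 8 were above 0.75. With a correction for gene length, chosen after seeing the data, 6 of the 10 passed, beside 4.68% of all genes. S100A11 missed the threshold (adjusted p = 0.0512, limma) with a log2 fold change of 0.79 beside 0.84 without the correction, and the fold changes of S100A14 and S100A16 were 0.09 and 0.15. The GC content of the 10 genes' transcripts was 47.4% to 58.9%, a range in which 5084 tested genes had a median log2 fold change of −0.04. With a correction for GC content, also chosen after seeing the data, 9 of 10 passed, beside 13% of all genes, with S100A7 (adjusted p = 0.0486, limma) and S100A16 (adjusted p = 0.0213, limma) added.

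**Figure D5:**
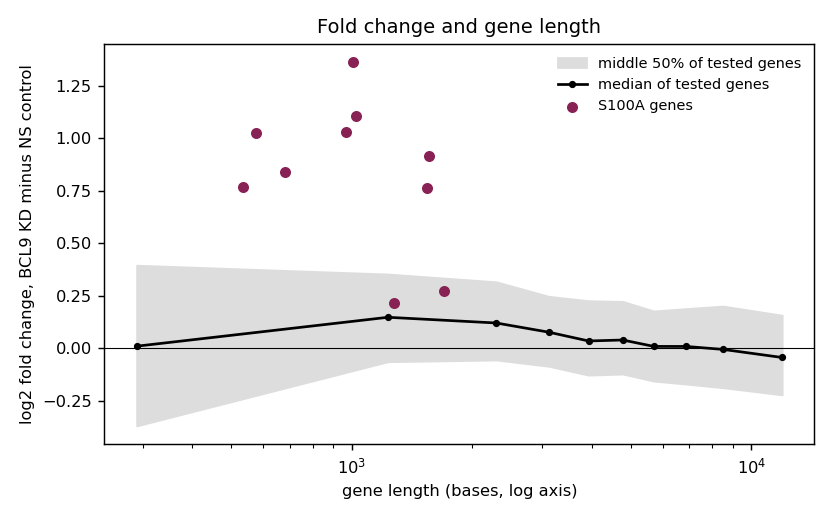
Log2 fold change against gene length (log axis) of the 10 S100A genes, with the median (line) and the middle 50% (band) of all genes tested in 10 bins of about 1372 genes. Of the 8 S100A genes in the bin of 608 to 1830 bases, where the median was 0.15, 6 lie above the band, as do both in the bin of 13 to 607 bases, where it was 0.01.

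The genes most like S100A8 and S100A4 in pattern were found by the root mean square difference of centred log2 values over the 6 samples, among 6571 genes outside the family with a mean of at least 5 FPKM. For S100A8 these were LCN2, which encodes the iron-siderophore binding protein lipocalin 2 (difference 0.0973), AREG, an EGFR ligand (0.107), and TMSB4X, an actin-binding peptide (0.118). LCN2 was at 42.7, 45.2 and 47.6 FPKM in NS control and 94.7, 133 and 135 FPKM in BCL9 KD. Since the likeness to S100A8 chose these genes, their change is no separate result. The S100A8 profile rests on 12 to 80 reads a sample, and its log2 fold change depends on the pseudocount and unit. It was 1.36 in the main fit, 1.07 with a pseudocount of 1, 1.76 with 0.1 and 1.92 with voom. LCN2 was at 1.39 in the main fit. Which genes lie nearest to S100A8 under another pseudocount or unit was not tested. For S100A4 they were TMSB4X (0.0756), AREG (0.0858) and SNHG8 (0.0870). S100A6, at 0.0590, was closer to S100A4 than any of them. These genes share the 6 libraries, and the likeness is a description.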

How the data were processed

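RNA from 3 NS control and 3 BCL9 KD flasks was sequenced with paired ends. The authors used STAR 2.5 for alignment and HTSeq 0.6.1 for counting (hg38, per the submitters' processing notes) and deposited FPKM, together with the gene length in bases (unit other). Reads were recovered from FPKM, gene length and depth and were whole for 100% of values (tolerance 0.1). Reads are not independent molecules, so counts give counting error only. The study tested read counts. Here the deposited FPKM were tested.

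The comparison was limma 3.58.1 with an empirical Bayes trend (R 4.3.3) on log2(FPKM + 0.5) for genes with a mean of at least 0.5 FPKM, Benjamini-Hochberg adjusted over 13745 genes at 0.05. Single sums and ratios were compared by exact permutation tests. The genes and lists were chosen with earlier results of these data known. Named were the 10 genes, BCL9, members of the family and partner lists that passed or were at 0, genes of the span past the test, and the 3 genes nearest in pattern to each of the 2 S100A genes of largest change. Other names (such as S100P, ANXA1, ANXA2, TLR4, AGER, CD14 and SPRR2A) were chosen after their values were seen. Alternatives changed the pseudocount, filter, scaling, variance model, replicate block, unit (voom on recovered reads), gene types, threshold and samples. Corrections for GC content and gene length (loess, span 0.3) were added after seeing the data. Promoter sequences came from RefSeq (GRCh38.p14).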

Additional observations from a re-analysis of the deposited data

How the results depend on the processing

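Of 20 alternatives, 13 can move a fold change, and the log2 fold changes of the 10 S100A genes were above 0 in 130 of 130 values under them. These are refits of the same 6 samples and not separate results. For the 8 genes whose groups did not overlap, leaving out 1 sample cannot change the sign. The number that passed, 7, was 7 with a pseudocount of 1 or 0.1, median-of-ratios scaling, quantile normalization, robust fitting or voom, 8 among protein-coding genes, 6 with the length correction and 5 without the trend, but 3 with no filter and 1 at an adjusted p under 0.01. Leaving out 1 sample gave 0 to 7. Over all genes, where 807 passed, 142 did with no filter, 332 without the trend, 1400 with voom, 1409 among protein-coding genes, 43 at an adjusted p under 0.01 and 1765 with the GC correction, and leaving out 1 sample gave 5 to 1729, with 12 without NS control replicate 2, 1729 without NS control replicate 3, 13 without BCL9 KD replicate 2 and 5 without BCL9 KD replicate 3.

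Of the other family and partner genes, 1 passed, and the number was 3 with a mean of at least 1 FPKM, 4 with quantile normalization or protein-coding genes, 5 with voom, 8 with the GC correction, 2 with the length correction, 0 with no filter, without the trend or at an adjusted p under 0.01, and 0 to 5 when 1 sample was left out (4 without NS control replicate 3, 5 without BCL9 KD replicate 1, and 0 without NS control replicate 2, BCL9 KD replicate 2 or BCL9 KD replicate 3). The cause of these changes was not tested.

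Replicate numbers did not pair the samples: deviations of same-numbered samples correlated at −0.0795 on average, and those of different numbers at 0.0387. With the replicate block, 0 S100A genes (8 at an unadjusted p under 0.05), 0 other family and partner genes and 0 of all genes (3235 at an unadjusted p under 0.05) passed by limma.

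The log2 difference of the summed FPKM was 0.70, and 0.63 to 0.82 with 1 sample left out. That of the S100A9 to S100A8 ratio was −0.87, and −0.98 to −0.69. S100A7 and S100A8 rest on 3 to 80 reads a sample, which limits the precision of their values.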
